A study of Mus musculus with 6 samples.

Results

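The Satb1 bait lies at position 51962000 of mouse chromosome 17 (mm9). The fragments described here are the DpnII fragments of that chromosome whose midpoint lies more than 1.5 Mb and at most 5 Mb from the bait, on either side. This range was set by distance alone. It holds 17896 of the 229546 fragments listed for chromosome 17, of which 8683 lie at lower and 9213 at higher coordinates than the bait, and the whole series lists 916352 fragments.

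The series was made to present a browser for 4C profiles and holds 6 libraries from 3 baits. The Satb1 promoter was the bait in 1 library of double-positive (DP) thymocytes and in 1 library of embryonic stem (ES) cells. The comparison asks how the contacts of the same promoter differ between cells that express the gene and cells in which it is silent. The DP cells were CD4+/CD8+ thymocytes sorted by FACS from the thymus of c57/Bl6 mice aged 4 weeks. The number of mice is not given in the sources used here. The ES cells were the J1 line of strain 129S4/SvJae, grown on irradiated fibroblasts and then passaged without them. Fixation of either cell type was in 2% formaldehyde for 10 min, and both libraries were cut with DpnII and Csp6I. The labels give 0.4% SDS for permeabilization of both, while the methods give 0.7% for DP thymocytes. With 1 library each, cell type, strain and library cannot be told apart. No comparison between DP and ES has a test, and every interval covers the counting error of fragments only, not the spread between cultures or animals.

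In 4C, chromatin is crosslinked and cut, ends that lie close together in the nucleus are ligated, and the fragments joined to a chosen bait are amplified and sequenced. Contacts thin out steeply with distance along the chromosome, so that far from the bait most fragments carry no read and the share of fragments with a read becomes the useful measure. Satb1 encodes a DNA-binding chromatin organizer with a central role in thymocyte development.

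On chromosome 17 the DP library held 1997083 reads on 5510 fragments and the ES library 1847598 reads on 9924 fragments, so that similar read totals were spread over fewer fragments in DP. Within the range lay 2.78% of the DP reads (55612) and 10.7% of the ES reads (197371). A fragment is called detected here if it has at least 1 read.

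The fragments printed here show what these contacts are at the level of sequence. They are the fragments with most reads in 1 library in the places the results turn on, among short ones whose ends are both unique in the genome. That library was DP for the first 4 and ES for the fifth. Each is given from mm9 on the plus strand with both DpnII sites. Capitals mark the DpnII sites (GATC) at the ends and any Csp6I site (GTAC) between them. The first lies 1520 kb from the bait on the lower side, at chr17:50442279-50442552, and had 1036 reads in DP and 0 in ES. The second lies 1852 kb away on the higher side, at chr17:53813674-53813833, and had 661 reads in DP and 211 in ES. The third, at chr17:48133611-48133693, and the fourth, at chr17:48036912-48037084 within Foxp4, come from a place called DP-specific below and had 379 and 82 reads in DP and 0 in ES. The fifth, at chr17:48793869-48794000, comes from a place called ES-specific and had 0 reads in DP and 1358 in ES.
lower side, inner part: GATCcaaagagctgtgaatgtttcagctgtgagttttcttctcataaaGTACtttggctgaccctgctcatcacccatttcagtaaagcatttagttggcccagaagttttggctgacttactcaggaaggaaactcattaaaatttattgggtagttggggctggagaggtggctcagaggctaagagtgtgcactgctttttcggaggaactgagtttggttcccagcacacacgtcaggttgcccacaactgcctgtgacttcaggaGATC
higher side, inner part: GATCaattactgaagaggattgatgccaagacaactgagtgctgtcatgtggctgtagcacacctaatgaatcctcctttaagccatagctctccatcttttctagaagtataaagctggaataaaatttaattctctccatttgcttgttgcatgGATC
DP-specific, no gene: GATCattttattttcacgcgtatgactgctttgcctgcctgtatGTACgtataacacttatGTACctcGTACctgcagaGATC
DP-specific, Foxp4: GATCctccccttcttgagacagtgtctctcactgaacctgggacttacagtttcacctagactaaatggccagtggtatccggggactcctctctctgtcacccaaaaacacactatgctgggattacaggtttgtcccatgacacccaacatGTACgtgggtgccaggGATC
ES-specific: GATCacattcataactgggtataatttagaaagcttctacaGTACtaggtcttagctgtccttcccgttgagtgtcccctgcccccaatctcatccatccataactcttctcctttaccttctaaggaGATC
In 4 of these 5 fragments one library had no read at all where the other had at least 82. Because each was picked by the reads of 1 library, the lack of reads in the other is not a result about these places. Single fragments at this range are read here through their neighbours, in bins of 100 and 250 kb.

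Over the whole range, 414 fragments were detected in DP, or 2.31% (95% exact interval 2.10 to 2.54%). In ES, 1842 were detected, or 10.3% (9.85 to 10.7%), which is 4.45 times the DP share (4.01 to 4.94). At the same distances from their own baits, the other libraries detected 4.16% and 6.93% (ES, SCR bait, replicates 1 and 2), 7.59% (NPC, SCR bait) and 1.60% (DP, Ikzf1 bait) of their fragments. The DP library with the Satb1 bait thus stood above the other DP library and below the libraries of the other cells, and ES with the Satb1 bait was the highest of the 6. Detected fragments carried similar read numbers, with a median of 26.5 in DP and 31 in ES, so the libraries differed in how many fragments had reads more than in how many reads each had.

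In DP detection dropped about 10-fold from the 400 kb inside 1.9 Mb to the 400 kb beyond it, on both sides of the bait. In ES the drop at the same place was smaller on both sides, and on the lower side detection declined further over the rest of the range. Between 1.5 and 1.9 Mb, 205 of 1970 fragments were detected in DP (10.4%, 9.09 to 11.8%) and 533 in ES (27.1%, 25.1 to 29.1%). In the next 400 kb, 23 of 2278 were detected in DP (1.01%, 0.641 to 1.51%) and 333 in ES (14.6%, 13.2 to 16.1%). The share fell 10.3-fold in DP (6.73 to 15.8) and 1.85-fold in ES (1.64 to 2.09), and these intervals do not overlap. The place of the edge was taken from the counts after they had been seen. With the edge at 1.8 Mb, and narrower windows on either side of it, the fall was 4.34-fold in DP and 1.58-fold in ES. In steps of 50 kb the DP fall was spread over several steps. On the lower side the share was 12.6% at 1800 to 1850 kb, 6.60% in the next step and 3.01% at 1900 to 1950 kb. On the higher side it was 11.8% at 1750 to 1800 kb, then 3.39% and 4.76%, and 0.575% at 1900 to 1950 kb. The intervals of the steps that meet at 1900 kb overlap on both sides.

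**Figure D1:**
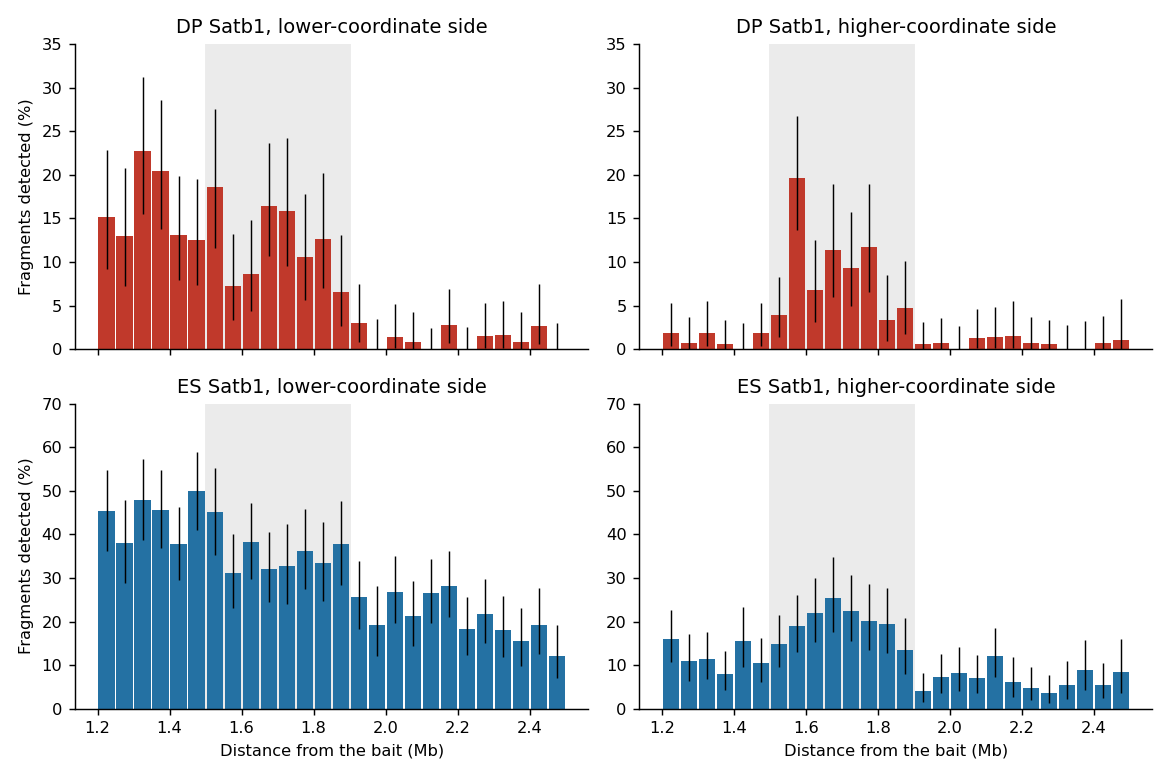
Share of fragments detected (y axis, %) in steps of 50 kb from 1.2 to 2.5 Mb from the bait (x axis, Mb), for DP (top) and ES (bottom) on the lower (left) and higher (right) side. Black lines are 95% exact intervals and grey marks 1.5 to 1.9 Mb. DP bars drop over several steps around 1.9 Mb on both sides, ES bars drop less, and the y axes of the rows differ.

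The fall in DP was 9.93-fold on the lower side (5.63 to 17.5) and 10.8-fold on the higher side (5.65 to 20.6). In ES it was 1.51-fold on the lower side (1.31 to 1.73) and 2.95-fold on the higher side (2.31 to 3.78), so that the fall seen in DP had a weaker counterpart in ES on the higher side. The same ratio was 0.953 and 1.02 in the ES libraries with the SCR bait, 1.14 in NPC and 0.580 in the DP library with the Ikzf1 bait, each with an interval that includes 1. At this depth no step at this distance was detectable from the other baits. The distance was chosen from the Satb1 counts, and no edge was searched for around the other baits, so steps elsewhere around them remain unexamined.

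**Figure D2:**
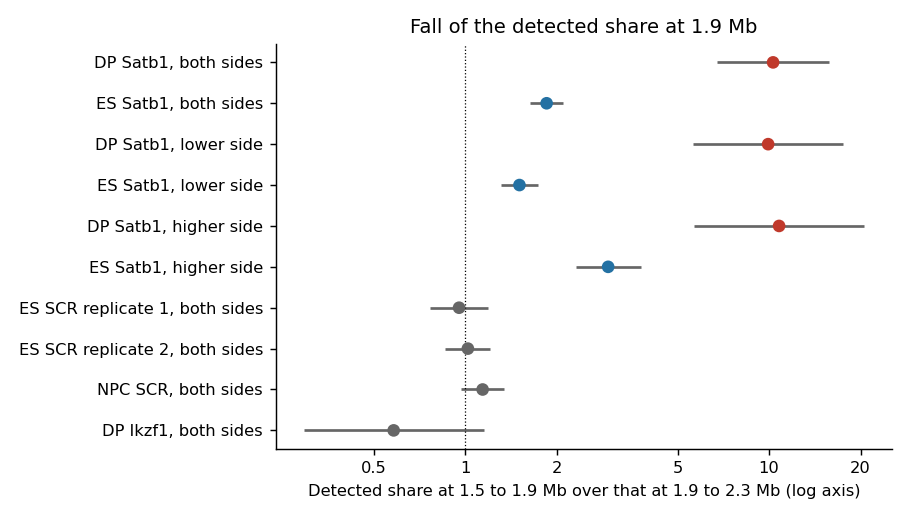
Detected share at 1.5 to 1.9 Mb divided by that at 1.9 to 2.3 Mb (x axis, log scale), for each library around its own bait, with 95% intervals for counting error. The DP points for the Satb1 bait lie between 9.93 and 10.8, the ES points between 1.51 and 2.95, and the intervals of the other libraries include 1.

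The 400 kb inside the edge held 49.5% of all fragments detected in DP in the range and 28.9% of those in ES. Beyond the edge the DP share was 1.31% (209 of 15926 fragments), close to the 1.23% found at 5 to 10 Mb and the 1.02% found beyond 10 Mb. In ES it was 8.22% beyond the edge, 3.18% at 5 to 10 Mb and 1.95% beyond 10 Mb. So the DP average over the rest of the range was near that of the far chromosome, while the ES share was still falling past the range. By class the DP share was not level. It was 0.772% at 2.5 to 3 Mb (0.472 to 1.19%) and 1.98% at 4 to 4.5 Mb (1.47 to 2.61%). The excess of ES over DP accordingly changed with distance. It was 2.60-fold at 1.5 to 1.9 Mb (2.24 to 3.02), 14.5-fold in the next 400 kb (9.53 to 22.0), and 3-fold at 4 to 4.5 Mb (2.18 to 4.13).

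The inner parts on the 2 sides differed in how they join what lies closer to the bait. On the lower side DP detection ran on from the part just nearer the bait than the range. There, at 1.3 to 1.5 Mb, 87 of 512 fragments were detected (13.8 to 20.5%), and at 1.5 to 1.9 Mb 112 of 932, or 12.0%. On the higher side it formed an island, since 7 of 605 fragments were detected in DP at 1.3 to 1.5 Mb (1.16%, 0.466 to 2.37%) and 93 of 1038 at 1.5 to 1.9 Mb (8.96%, 7.29 to 10.9%). Within the island the step from 1550 to 1600 kb was the highest, with 19.6% of 153 fragments detected in DP. ES had a weaker rise at the same place, from 11.1% at 1.3 to 1.5 Mb to 19.4% at 1.5 to 1.9 Mb. The intervals of the shares before and within the island do not overlap in either library.

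Detected fragments lay more often on the lower side. It held 48.5% of the fragments in the range but 56.3% of those detected in DP (51.4 to 61.1%) and 64.8% of those detected in ES (62.6 to 67.0%). Per fragment, detection on the lower side was 1.37 times that on the higher side in DP and 1.96 times in ES. The higher side holds more repeated sequence: between 1.9 and 3.1 Mb, 71.7% of its fragments have a unique end against 97.3% on the lower side. Of the 15419 fragments with a unique end, 53.8% lie on the lower side, and it held 57.4% of the DP detections on such fragments (52.4 to 62.3%) and 65.8% of the ES detections (63.6 to 68.0%). The DP interval includes the share of fragments, so an excess on the lower side was not detectable in DP once uniqueness was matched, while in ES it was.

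On the lower side the ES share was lower in each further stretch. It was 35.6% at 1.5 to 1.9 Mb and between 15.7 and 18.4% at 1.9 to 3.1 Mb (523 of 3078 fragments). It was 9.30% at 3.1 to 4 Mb and 5.38% at 4 to 5 Mb. The corresponding DP shares were 12.0%, 1.01%, 2.24% and 1.64%. The DP share was lower at 1.9 to 3.1 Mb (0.685 to 1.43%) than at 3.1 to 4 Mb (1.66 to 2.94%), but the bounds of these stretches were chosen after the data were seen. In the classes of 0.5 Mb the neighbouring DP intervals overlap, with 0.959% at 2.5 to 3 Mb (0.497 to 1.67%), 1.77% at 3 to 3.5 Mb (1.11 to 2.67%) and 2.23% at 3.5 to 4 Mb (1.49 to 3.21%). On the higher side the ES shares were 19.4%, 6.04%, 4.63% and 5.54%, and the DP shares 8.96%, 0.668%, 0.806% and 1.92%. There the DP share at 4 to 5 Mb (1.41 to 2.55%) was above that at 1.9 to 3.1 Mb (0.419 to 1.01%) and that at 3.1 to 4 Mb (0.493 to 1.24%). By class, DP had 2.34% at 4 to 4.5 Mb (1.57 to 3.35%) and 1.46% at 4.5 to 5 Mb (0.855 to 2.33%), and the latter interval overlaps that at 3.5 to 4 Mb (0.434 to 1.46%). Gene content and base composition moved with this: on the higher side the GC content was 39.3% and 39.0% in the middle stretches, with 0.417 and 0.556 protein-coding genes per 100 kb, and 50.4% with 4.80 genes per 100 kb at 4 to 5 Mb. The share of fragments with a unique end moved too, from 71.7% at 1.9 to 3.1 Mb to 93.6% at 4 to 5 Mb. Over fragments with a unique end alone, the DP shares beyond the edge on the higher side were 0.855% (0.523 to 1.32%), 1.06% (0.627 to 1.66%) and 2.02% (1.48 to 2.69%), so that the interval at 4 to 5 Mb then overlapped that at 3.1 to 4 Mb. The part of gene content and GC content was not tested. Over the 62 bins of 100 kb beyond the edge, the DP share correlated with GC content across bins (Pearson's r 0.51, Spearman's rho 0.54), and the ES share less (0.14 and 0.11). This order turned for the share divided by that expected at the same distance, with 0.32 and 0.36 in DP and 0.48 and 0.47 in ES. It did not turn on the lower side alone, with 0.25 and 0.17 in DP and -0.13 and -0.225 in ES. On the higher side these were 0.28 and 0.34 in DP and 0.56 and 0.34 in ES. With the share of fragments with a unique end, the same quotient correlated at 0.37 and 0.38 in DP and 0.66 and 0.67 in ES over both sides. On the lower side the ES share followed distance, with r -0.90 and rho -0.94 over 31 bins, where DP had r 0.30 and rho 0.32. Over the 31 bins on the higher side ES had r -0.22 and rho -0.16, and DP r 0.49 and rho 0.47. Neighbouring bins share a library and a region and are not independent.

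**Figure D3:**
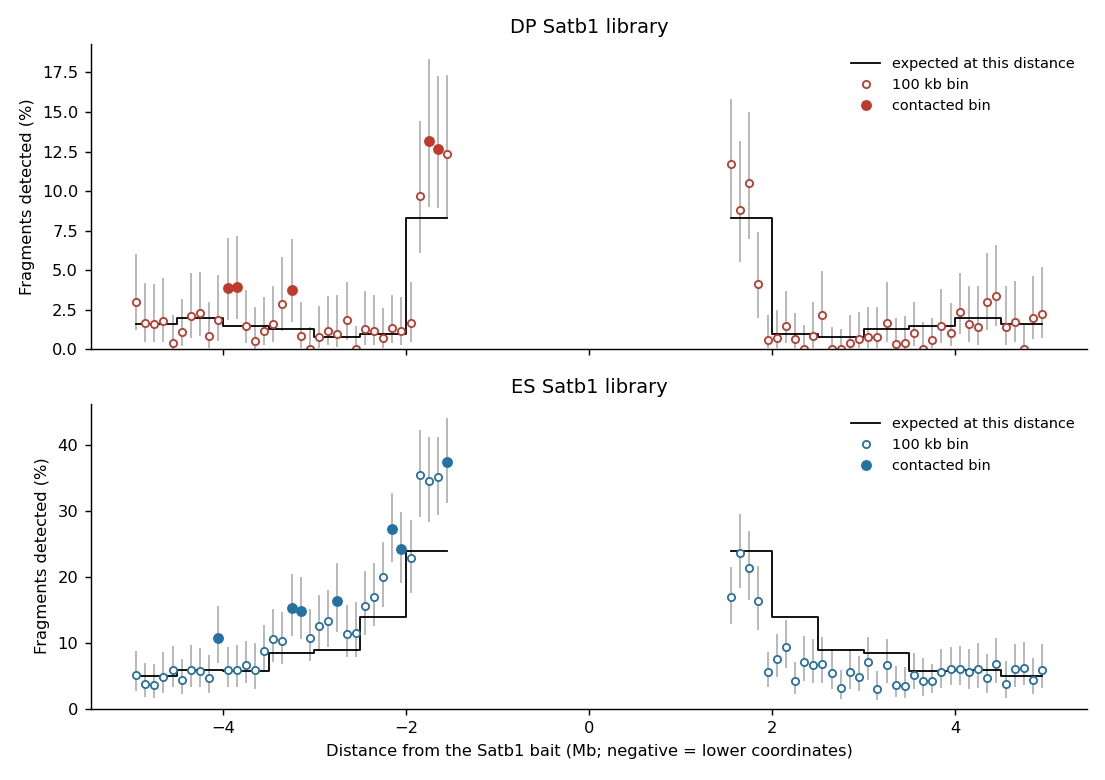
Share of fragments detected (y axis, %) in each 100 kb bin against its distance from the bait (x axis, Mb), in DP (top) and ES (bottom), with 95% exact intervals in grey. The black steps are each library's share over both sides in classes of 0.5 Mb, and filled points are the 5 DP and 7 ES contacted bins, all on the lower side. DP bins drop beyond 1.9 Mb on both sides and ES bins decline over the lower side.

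The edge at 1.9 Mb fell between protein-coding genes. On the lower side the inner part holds Dazl, a germ-cell RNA-binding protein, AY702103 and Rftn1, which encodes the lipid raft protein raftlin and ends 1830 kb from the bait. Rftn1 had 64 of its 471 fragments detected in DP (13.6%) and 165 in ES (30.7 to 39.5%), and Dazl had 6 and 11 of 19. The next protein-coding gene is Kif6, a kinesin motor gene whose near end, its downstream end, lies 1913 kb from the bait. Its upstream end lies at 2208 kb. Kif6 had 8 of 774 fragments detected in DP (1.03%) and 195 in ES (25.2%). From Rftn1 to Kif6 the DP share thus dropped to near the level of the far chromosome. Kif6 kept the third highest ES share of the 71 genes with at least 20 fragments, where Med20 counts once for each of its annotation entries. Behind it, Daam2, a formin of Wnt signalling, had 5 of 278 detected in DP and 56 in ES. Lrfn2, a synaptic adhesion protein, had 4 of 381 in DP and 55 in ES, and Mocs1, needed for the molybdenum cofactor, had 0 of 76 in DP and 8 in ES.

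On the higher side the island covers Efhb, Rab5a, Kat2b and Sgol1. Efhb encodes an EF-hand protein and had 12 of 164 fragments detected in DP and 39 in ES. Rab5a, the GTPase of early endosomes, had 8 of 52 in DP (15.4%) and 16 in ES (30.8%), the highest DP share of the 71 genes. Kat2b, a histone acetyltransferase, had 22 of 251 in DP (8.76%) and 49 in ES (19.5%). Sgol1, the guardian of centromeric cohesion, reaches out to 1867 kb from the bait and had 2 of 32 in DP and 5 in ES. Past it the next protein-coding gene is Sult1c2, a sulfotransferase 2007 kb away, with 0 of 46 in DP and 5 in ES. Slc5a7, the choline transporter, and St6gal2, a sialyltransferase, also had no fragment detected in DP, of 47 and 144, while ES had 6 and 7. A count of 0 at these sizes does not show that contact is absent.

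**Figure D4:**
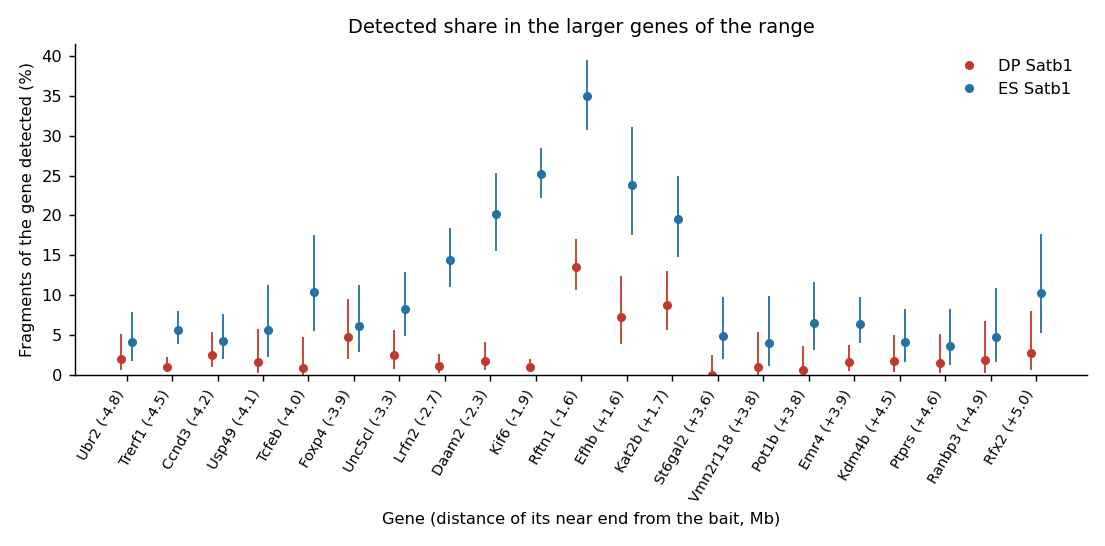
Share of the fragments of a gene that were detected (y axis, %) in DP (red) and ES (blue) for the 21 protein-coding genes with at least 100 fragments in the range, ordered along the chromosome with the distance of the near end from the bait in Mb. Med20, which has more than 1 entry in the annotation, is left out. Lines are 95% exact intervals. Rftn1, Efhb and Kat2b are high in both libraries, and Kif6, Daam2 and Lrfn2 in ES alone.

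Beyond 3 Mb the genes had few detected fragments in DP. Foxp4, a forkhead transcription factor, had 7 of 147 fragments detected in DP (4.76%) and 9 in ES (6.12%). Ccnd3, the D-type cyclin needed for thymocyte expansion, had 6 of 237 in DP and 10 in ES. Unc5cl, a death-domain protein related to netrin receptors, had 5 of 205 in DP and 17 in ES. Tcfeb, a regulator of lysosomal genes, had 1 of 115 in DP and 12 in ES. On the higher side Uhrf1, which maintains DNA methylation, had 2 of 35 in DP and 3 in ES, the demethylase gene Kdm4b had 3 of 171 and 7, and the adhesion receptor gene Emr4 had 5 of 312 and 20.

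By list, 9 of 14 cell cycle and chromatin genes in the range had a detected fragment in DP and 13 in ES. Of 14 lymphocyte signalling and transcription genes these were 11 and 13. Of 12 neuronal, germ cell and developmental genes they were 9 and 12, and of the 6 TREM receptor genes, immune receptors clustered near 3.5 Mb on the lower side, 2 and 6. Of all 103 protein-coding genes with a fragment in the range, with Med20 counted for each of its annotation entries, 49 had a detected fragment in DP (47.6%) and 81 in ES (78.6%). The median share per gene was 2.41% in DP and 7.61% in ES for the lymphocyte list, 1.95% and 6.31% for the cell cycle list, 2.06% and 10.8% for the neuronal list, and 0% and 8.60% for the TREM genes, beside 0% and 6.12% over all genes. Larger genes have more fragments in which to be detected, so the counts of genes also follow gene size.

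For places within the range, each bin was set against the share its own library detected in the same 0.5 Mb class of distance, both sides together. This quotient is the scaled share. A bin was called contacted if its scaled share was at least 1.5 and the lower bound of its exact interval lay above the expected share, and a run is at least 2 neighbouring contacted bins. Of 70 bins of 100 kb, with a median of 253.5 fragments, 5 were contacted in DP and 7 in ES, and 7 had no detected fragment in DP. Over all 893 such bins of chromosome 17 beyond 1.5 Mb, 5.15% were contacted in DP and 6.83% in ES, so the range was close to the rest of the chromosome by this count. Every contacted bin lay on the lower side. With an expectation for each side of its own, an alternative added after the data were seen, 3 bins were contacted in DP and 1 in ES, and of these 0 and 1 were among the contacted bins above. The 3 DP bins then lay on the higher side, at 1.5 to 1.6, 1.7 to 1.8 and 2.5 to 2.6 Mb, so the side of the DP calls turned with the expectation.

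The DP runs were at 1.6 to 1.8 Mb and 3.8 to 4 Mb. The first (chr17:50162000-50361999), in Rftn1, had 63 of 488 fragments detected in DP (12.9%), and it lies inside the edge. Its bins were no longer contacted when the first distance class was ended at 1.9 Mb. The second (chr17:47962000-48161999), which includes Foxp4 and part of Mdfi, an inhibitor of myogenic factors, had 20 of 511 (3.91%). Its scaled shares of 2.65 and 2.60 fell by the side's own expectation to 1.77 and 1.73. The remaining contacted DP bin was at 3.2 to 3.3 Mb, with 9 of 242 fragments and a scaled share of 2.98.

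The ES runs were at 2 to 2.2 Mb and 3.1 to 3.3 Mb. The first (chr17:49762000-49961999) lies in Kif6 and had 145 of 562 fragments detected in ES (25.8%). The second (chr17:48662000-48861999) had 73 of 484 (15.1%) and includes the downstream end of Unc5cl. Their scaled shares lay between 1.74 and 1.96, and by the side's own expectation between 1.15 and 1.29. Single contacted ES bins were at 1.5 to 1.6 Mb (Dazl), 2.7 to 2.8 Mb (Lrfn2) and 4 to 4.1 Mb (Tcfeb). The last was the only contacted bin of either library that the side's own expectation kept, with 23 of 216 fragments detected in ES (10.6%) and 4 in DP (1.85%). It was kept in 4 of the 9 alternatives on the same grid, and the ES bin at 2.1 to 2.2 Mb in 8 of 9. The bin at 3.2 to 3.3 Mb, with Unc5cl, was the 1 bin contacted in both libraries.

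A contacted bin was called specific if its scaled share was at least 2 times that of the other library. DP had 2 such bins, the neighbours at 3.8 to 3.9 and 3.9 to 4 Mb. Each had 10 detected fragments in DP, of 253 and 258, and 15 in ES, and each had a ratio of scaled shares of 2.58 (1.18 to 5.64). ES had 1, at 3.1 to 3.2 Mb and with no protein-coding gene, where 2 of 242 fragments were detected in DP and 36 in ES. Its ratio of DP to ES was 0.373 (0.0909 to 1.53), an interval that includes 1. Over chromosome 17 beyond 1.5 Mb, 2.91% of bins were DP-specific and 2.58% ES-specific, and 2 and 1 of 70 do not stand out from that. By each side's own expectation none of the 3 was specific.

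Of the 63 bins detected in both libraries, 5 had a ratio whose interval excluded 1, the DP-specific pair and 3 bins outside these calls. The intervals make no allowance for the number of bins, and among 63 some can exclude 1 by counting error alone. Whether 5 of 63 stands out from the rest of the chromosome was not tested, so the 3 bins are only described here. In the bin just beyond the edge on the lower side, at 1.9 to 2 Mb, DP had 4 and ES 54 of 237 fragments, with a ratio of 0.212 (0.0782 to 0.577). This bin was scaled by the class of 1.5 to 2 Mb, which spans the edge. The DP share expected there was 8.33%, while DP detected 1.01% over 1.9 to 2.3 Mb and 1.69% in this bin. ES detected 14.6% and 22.8%. The ratio thus rests on the class bounds, and no ES excess particular to this bin is read from it. At the beginning of the range on the higher side DP had 36 and ES 52 of 308 fragments, a ratio of 1.99 (1.34 to 2.95), from the island. At 2.5 to 2.6 Mb on the higher side DP had 5 and ES 16 of 234 fragments, with a ratio of 3.58 (1.33 to 9.61). The DP share of this bin was 2.14%, and the interval of 5 fragments did not clear the expectation pooled over both sides. With the side's own expectation it was contacted and DP-specific.

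In bins of 250 kb, 3 of 28 were contacted in DP and 2 in ES, none of them neighbours, beside 7.54% and 14% over the chromosome. At a ratio of at least 1.5, DP-specific bins were at 3250 to 3500 kb and 3750 to 4000 kb on the lower side, the latter with 22 of 659 fragments in DP and 44 in ES and a ratio of 1.94 (1.17 to 3.20). The ratio of the former was 1.51 (0.890 to 2.57). ES-specific bins were at 2000 to 2250 kb, with 7 of 704 fragments in DP and 171 in ES, and at 3000 to 3250 kb, with 6 of 624 and 82. Their ratios of DP to ES were 0.612 (0.290 to 1.29) and 0.492 (0.216 to 1.12). Over the chromosome 4.47% of such bins were DP-specific and 8.66% ES-specific.

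The spread between replicates can be read only from the ES libraries with the SCR bait, at the same distances on chromosome 3. Between these, 7 of 70 bins differed at least 2-fold in scaled share (10.0%), the SD of the log2 ratio was 0.58, and 1 bin was specific for replicate 1 and 0 for replicate 2. Between DP and ES with the Satb1 bait, 10 of the 63 bins detected in both differed 2-fold (15.9%), with an SD of 0.84. DP had a median of 3.5 detected fragments per bin against 7.5 and 14 in the replicates of SCR, and the part of these counts in the wider spread was not tested. Across bins the scaled shares correlated with r 0.75 and rho 0.71 between the replicates, and with r 0.37 and rho 0.41 between DP and ES.

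**Figure D5:**
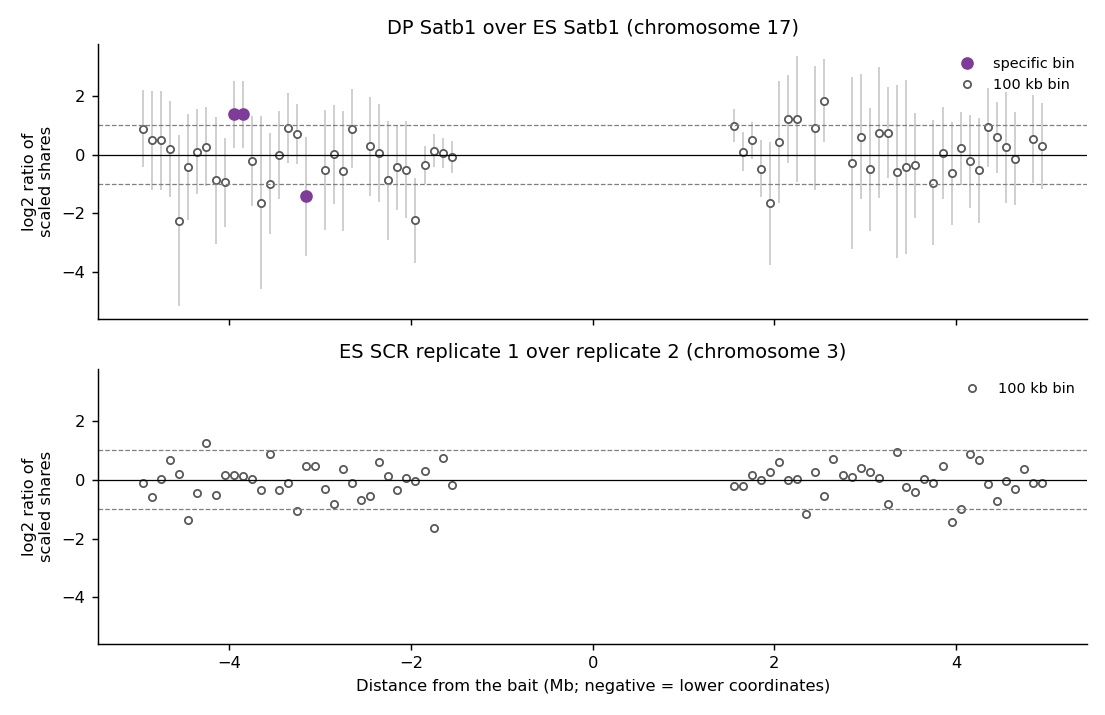
log2 ratio of scaled shares (y axis) in each 100 kb bin against its distance from the bait (x axis, Mb), for DP over ES with the Satb1 bait (top, with 95% intervals for counting error) and between the ES replicates with the SCR bait (bottom). Dashed lines mark 2-fold, filled points the 3 specific bins, and bins without a detected fragment in 1 library are left out. The DP over ES ratios spread more widely (SD 0.84) than those of the replicates (SD 0.58).

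At the level of single fragments the libraries shared 98 detected fragments, which is 23.7% of those in DP and 5.32% of those in ES. Of these, 74 lay inside 1.9 Mb. Beyond it, 24 of the 209 DP fragments were also detected in ES (11.5%), where ES detected 8.22% of all fragments. With neighbouring detected fragments merged, the fall at 1.9 Mb was 8.62-fold in DP and 1.60-fold in ES.

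Detection also depended on the fragments themselves, in both libraries. Of the 2477 fragments with no unique end (13.8%), 10 were detected in DP (0.404%) and 32 in ES (1.29%), whereas of the 12703 with both ends unique 2.65% and 12.8% were. Fragments with a Csp6I site were detected more often than those without, at 2.68% against 2.03% in DP and 11.8% against 9.17% in ES, and their median reads were 58 against 16 and 62 against 14. Fragments under 100 bp were detected in 1.57% of cases in DP and 6.23% in ES, and those of at least 500 bp in 2.61% and 13.6%.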

How the data were processed

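Per the labels and the methods, the authors trimmed the bait sequence from each read (26 nt remained for the Satb1 bait), mapped it to mm9 (Bowtie version 1.0.0 and bcl2fastq in the submitters' processing notes) and deposited, for every DpnII fragment on the chromosome of the bait, its read count without scaling. The user guide leaves out fragments above 2% of all reads. The highest fragment here holds 1.73% of the DP and 0.947% of the ES reads deposited for chromosome 17. This base holds only reads left after the filter, unlike the total of the 2% rule. PCR duplicates were kept, so intervals cover counting error only. Totals on chromosome 17 were 1997083 (DP) and 1847598 (ES) reads.

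All 229546 midpoints were matched to DpnII fragments of mm9, from which sequence, GC content, Csp6I sites and uniqueness of the fragment ends were taken. Genes were those of GENCODE vM1 on the same build. Shares carry exact (Clopper-Pearson) 95% intervals, and ratios carry intervals on the log scale. Where a library had 0 detected fragments in a bin, 3 were used for a bound. Expected shares were taken per 0.5 Mb class of distance. The bin rules were also run on simulated data, in which fragments were detected independently and at the same expected share on both sides. The simulation lacks the neighbouring detections and the difference between sides seen in the data, so no conclusion is drawn from it. Computations used Python version 3.11.15 and scipy version 1.17.1.

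The range, the gene lists and the rules were chosen with earlier results of these data known. Named genes overlap runs, specific bins or the 5 bins with the highest scaled share in a library, belong to the lists, or lie at the edges of the range. Sult1c2, Slc5a7, St6gal2 and Emr4 were added after their values were seen, as was the edge at 1.9 Mb. Alternatives covered the reads needed for detection, the expectation, the bin grid, fragment filters, merged neighbours, capped mean reads and the ratio of odds.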

Additional observations from a re-analysis of the deposited data

How the results depend on the processing

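The DP fall at 1.9 Mb stayed within its interval in 7 of 8 alternatives, and was 4.34-fold with the edge at 1.8 Mb and narrower windows. Most of these alternatives keep the edge at 1.9 Mb, and the interval is wide (6.73 to 15.8), so this count does not test the edge. The ES fall was 1.58-fold there, 1.61-fold with the edge at 2 Mb, 1.60-fold with merged neighbours and 2.38-fold in capped mean reads. The lower side's share of DP detections stayed within its interval throughout, and that of ES fell to 61.5% with merged neighbours. The calls of single bins were not stable: they rest on few fragments, on 1 library each, and on the expectation chosen.

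The detected share in DP was 2.05% at 2 reads, 1.53% at 10 reads, 2.62% over fragments with a unique end, 2.68% over those with a Csp6I site and 2.05% with merged neighbours. In ES it was 9.50%, 7.10%, 11.7%, 11.8% and 8.45%. Contacted 100 kb bins numbered 11 in ES at 2 reads, 15 in ES with one overall expectation, 2 in DP over Csp6I fragments, and 14 in DP and 11 in ES by capped mean reads, which have no interval. They numbered 3 in DP with the first class ended at 1.9 Mb, and 3 in DP and 1 in ES with each side its own expectation. DP-specific 100 kb bins numbered 4 at 2 reads, 1 over Csp6I fragments, 9 by capped mean reads and 1 with each side its own expectation. ES-specific ones numbered 3 at 2 reads, 0 at 10 reads, 7 with one overall expectation, 3 on the shifted grid, 4 over Csp6I fragments, 2 by capped mean reads, 0 with each side its own expectation and 2 by odds. Contacted 250 kb bins in ES numbered 4 at 2 reads, 5 with one overall expectation, 0 over fragments with a unique end, 5 over Csp6I fragments, 1 with merged neighbours and 4 by capped mean reads. DP-specific 250 kb bins numbered 1 over Csp6I fragments and 1 with merged neighbours. ES-specific ones numbered 0 over fragments with a unique end and 1 with merged neighbours. The 2 DP-specific 100 kb bins were called at 2 reads, at 10 reads, over fragments with a unique end, with merged neighbours and with the first class ended at 1.9 Mb. Neither was called with one overall expectation or with each side its own. The expectation by side, the class ended at 1.9 Mb and all settings of the fall were chosen after seeing the data. The cause of these changes was not tested. No paired analysis was possible because each cell type has 1 library for this bait.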
